A study of Mus musculus with 8 samples.

Results

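The genes described here are 44 listed genes of DNA damage sensing and repair, of which 42 were measured out of 19938 genes in all. They were fixed by name and sorted by pathway, and where several probe sets were annotated to a gene alone, the brightest on average stands for it. Dclre1c and Xrcc2 had no such probe set and are not analysed here. Thymus RNA came from 4 C57BL/6NTac mice, 8 weeks old, flown aboard the space shuttle (STS-118) for 13 days, and from 4 ground-control mice of the same strain, age and sex, kept in animal enclosure modules on the ground. Each mouse had 1 Affymetrix array. No genetic change or drug is named for either group. The mice of each group are numbered 1 to 4, nothing in the labels pairs them, and p-values measure the spread between these mice. The comparison asks whether the transcripts of the repair machinery differ in the thymus after a flight.

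DNA repair works through separate routes for separate lesions. Kinases of the ATM and ATR family sense breaks and stalled replication and signal to checkpoint kinases. End joining seals double-strand breaks directly, homologous recombination copies the missing stretch from a sister strand, excision pathways replace damaged bases or bulky adducts, mismatch repair corrects replication errors, and the Fanconi pathway clears crosslinks. The thymus depends on end joining in a particular way, because developing T cells cut and rejoin their receptor genes, and mice without core end-joining factors such as Prkdc make few mature lymphocytes. Recombination and Fanconi genes are also transcribed most in cells that replicate DNA.

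All values below are log2 expression values, where a difference of 1 is a doubling, and every difference is spaceflight minus ground control. Levels of different probe sets cannot be set against each other. Double-positive thymocyte markers (9 measured, among them Cd4, Cd8a and Rag1) had a median level of 10.24 to 10.54 per array in spaceflight and 10.46 to 10.54 in ground control. Their median deviation from the ground-control mean ran from -0.22 to -0.045 in spaceflight and from -0.0755 to 0.0261 in ground control. All 9 differences lay below 0, with a median of -0.15 (-0.06 without spaceflight arrays 1 and 3). The groups did not overlap for 2 of the 9 (22.2%, against 6.01% of all genes). Spaceflight arrays 1 and 3 stood apart, with an interquartile range of 2.43 each, against 2.82 to 2.84 in spaceflight arrays 2 and 4 and 2.68 to 2.95 in ground control. Markers of other cells were uneven across mice. The median deviation of 6 airway epithelium markers from their ground-control mean ran from -2.26 (spaceflight array 1) to 0.24 in spaceflight and from -0.59 to 0.69 in ground control. That of 8 fat cell markers ran from -1.10 (spaceflight array 1) to -0.22 in spaceflight and from -0.19 to 0.30 in ground control. For 8 macrophage and dendritic cell markers it ran from -0.93 (spaceflight array 1) to 0.23 in spaceflight and from -0.15 to 0.20 in ground control. For 10 markers of cortical epithelium, which supports the thymocytes, it ran from -0.59 to -0.14 in spaceflight and from -0.05 to 0.06 in ground control, and their median difference was -0.44 (-0.18 without spaceflight arrays 1 and 3). The part of these cells in the repair values was not tested. In whole lobes, fewer cells of a type and less RNA per cell cannot be told apart.

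No repair gene passed the test after spaceflight. Of the 42, 0 were at a limma adjusted p under 0.05, against 0.0802% of all genes (0.015% higher and 0.0652% lower), and the smallest adjusted p was 0.245. At an unadjusted p under 0.05 there were 7, 2 higher (Xpa and Xrcc6) and 5 lower (Chek1, Polb, Mdc1, Nbn and Apex1). That is 16.7% of the members, against 10.8% of all genes (3.43% higher and 7.38% lower). The median difference of the members was -0.07, and 29 of 42 lay below 0, against 53.5% of all genes with a median of -0.02. Among the 13349 genes at levels within the members' range (5.29 to 9.98) the median difference was -0.08 and 66.4% lay below 0, against 69.0% of the members. Of these 13349 genes, 12.1% were at an unadjusted p under 0.05 (267 higher and 1349 lower). The direction of the whole set depended on scaling: with each array centred on its 75th percentile, which moved the median of all genes to 0.12, the members' median was 0.07 and 13 of 42 lay below 0. Under that centring the genes at an unadjusted p under 0.05 numbered 5 higher and 2 lower, where 7.76% of all genes were higher and 2.61% lower, so the split of all genes turned with it. Without spaceflight arrays 1 and 3 the members' median was 0.00, 21 of 42 lay below 0, and 5 were at an unadjusted p under 0.05 (3 higher, 2 lower), at a background of 7.46% (3.49% higher and 3.97% lower). After adjustment 0 of the 42 passed, at a background of 0.0802% (0.0401% in each direction).

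**Figure D1:**
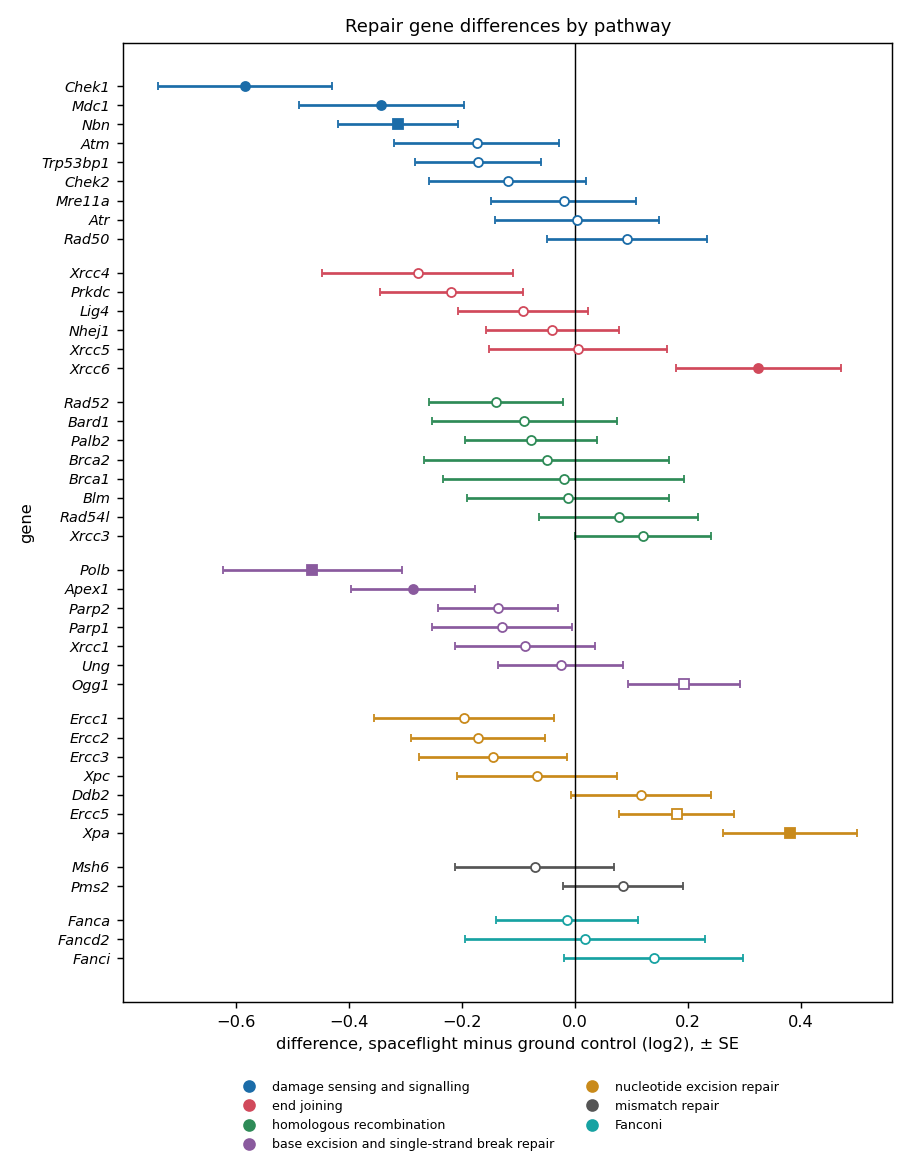
Difference between spaceflight and ground control (log2, ± SE of the limma fit) of each of the 42 measured repair genes, by pathway; filled symbols have an unadjusted p under 0.05 and squares mark genes whose 2 groups of 4 arrays do not overlap. The differences run from -0.58 (Chek1) to 0.38 (Xpa), and homologous recombination, mismatch and Fanconi genes lie between -0.14 and 0.14.

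The 2 groups of arrays did not overlap for 5 genes, Xpa, Ogg1 and Ercc5 with spaceflight higher and Nbn and Polb with spaceflight lower. That is 11.9% of the members, against 6.01% of all genes (1.73% higher and 4.28% lower). Of the 13349 genes at the members' levels, 6.83% did not overlap (154 higher and 758 lower). Without spaceflight array 2 the count was 11, at a background of 14.4%.

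Promoters are shown for the gene with the largest difference in each direction (Chek1 lower, Xpa higher), for the other gene higher at an unadjusted p under 0.05 (Xrcc6), and for the gene whose spread differed most between the groups (Brca2). Each is 250 bases before to 50 bases after the RefSeq start on GRCm38.p6, written 5′ to 3′ on the gene's strand, with matches to an E2F motif in capitals. E2F proteins are transcription factors that turn on genes at entry into S phase. The search took TTTGGCGC, TTTCCCGC, TTTCGCGC and TTTGCCGC on both strands.
Chek1, chr9:36726609-36726908, minus strand: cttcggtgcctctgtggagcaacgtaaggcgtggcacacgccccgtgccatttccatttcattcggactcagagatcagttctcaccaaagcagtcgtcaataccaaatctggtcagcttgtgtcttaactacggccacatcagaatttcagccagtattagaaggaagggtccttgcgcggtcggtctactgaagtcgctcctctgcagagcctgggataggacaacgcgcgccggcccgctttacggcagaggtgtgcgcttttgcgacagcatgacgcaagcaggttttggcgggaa
Xpa, chr4:46196262-46196561, minus strand: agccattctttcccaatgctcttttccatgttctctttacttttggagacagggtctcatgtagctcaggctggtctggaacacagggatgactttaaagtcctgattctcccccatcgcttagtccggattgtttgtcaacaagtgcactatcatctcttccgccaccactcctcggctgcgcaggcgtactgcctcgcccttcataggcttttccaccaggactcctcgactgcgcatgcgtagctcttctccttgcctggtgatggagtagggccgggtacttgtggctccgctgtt
Xrcc6, chr15:82016119-82016418, plus strand: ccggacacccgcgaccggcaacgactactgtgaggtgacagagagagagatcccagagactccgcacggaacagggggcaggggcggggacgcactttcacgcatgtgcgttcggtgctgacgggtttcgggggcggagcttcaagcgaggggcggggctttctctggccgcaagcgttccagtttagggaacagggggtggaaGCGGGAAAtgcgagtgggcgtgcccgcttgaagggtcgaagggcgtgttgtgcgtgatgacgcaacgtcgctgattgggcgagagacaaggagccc
Brca2, chr5:150522371-150522670, plus strand: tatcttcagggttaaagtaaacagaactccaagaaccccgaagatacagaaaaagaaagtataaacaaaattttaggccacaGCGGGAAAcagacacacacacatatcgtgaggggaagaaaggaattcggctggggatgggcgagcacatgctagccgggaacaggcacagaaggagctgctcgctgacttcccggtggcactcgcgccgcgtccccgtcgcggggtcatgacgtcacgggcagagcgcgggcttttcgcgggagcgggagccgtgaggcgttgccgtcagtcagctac

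Xrcc6 and Brca2 each held 1 match, which begins 46 and 168 bases before the start, while the windows of Chek1 and Xpa held no exact match. The Chek1 window ends with the first 7 of the 8 bases of GCGGGAAA, the reverse complement of TTTCCCGC. The base after the window was not read, so a match across its end was not tested. A RefSeq promoter was found for 34 of the 42 genes (36 promoters), and 6 of the 34 (17.6%) held an E2F match: Chek2, Mdc1, Xrcc6, Brca2, Bard1 and Msh6. The share was 3.48% of the 15563 measured genes with a promoter and 2.26% of all 32851 promoters in the table. CCAAT, a common promoter box, was in 58.8% of the 34 genes and 41.7% of the measured genes. The cell-cycle motif TTTGAA was in 5.88% against 17.3%, and the NRF1 palindrome in 2.94% against 1.62%. Of the 6 E2F matches in the promoters of these genes, 0 overlapped a match of another motif searched. A match is a description of the sequence.

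In the sensing and signalling group the median difference was -0.17, 7 of 9 genes lay below 0, and 3 (33.3%) were lower at an unadjusted p under 0.05. Of all genes 53.5% lay below 0 and 7.38% were lower at that threshold. At the members' levels 66.4% lay below 0 and 1349 of 13349 genes were lower at that threshold. Without spaceflight arrays 1 and 3 the group's median was -0.12. Then 2 genes, Chek1 and Trp53bp1, were lower at an unadjusted p under 0.05, where 3.97% of all genes were lower. Nbn and Mdc1 were no longer at that threshold. Chek1, the checkpoint kinase that acts below ATR at stalled replication, had 7.33, 7.61, 7.24 and 6.999 in spaceflight arrays 1 to 4, against 8.04, 7.93, 7.53 and 8.02 in ground-control arrays 1 to 4. Spaceflight lay lower apart from array 2, which was above ground-control array 3. The means were 7.29 ± 0.25 in spaceflight and 7.88 ± 0.24 in ground control (SD, n = 4 each), a difference of -0.58 ± 0.15 (SE), or 1.50-fold, with a limma adjusted p of 0.245. Without spaceflight arrays 1 and 3 it was -0.57 (adjusted p = 0.531), and over all alternatives the adjusted p ran from 0.138 to 0.631.

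Nbn encodes nibrin, the subunit of the Mre11-Rad50-Nbn complex that brings ATM to breaks. It had 7.34, 7.59, 7.42 and 7.55 in spaceflight, against 7.87, 7.75, 7.83 and 7.71 in ground control. Every spaceflight array lay below every ground-control array. The difference was -0.31 ± 0.11 (limma adjusted p = 0.353). A dimmer probe set of Nbn, with a mean level of 5.95, differed by -0.11 ± 0.09. Its complex partners were nearly level between the groups: Mre11a, the nuclease, differed by -0.02 ± 0.13 and Rad50, the tether of the broken ends, by 0.09 ± 0.14.

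Mdc1, the adaptor that holds repair factors on marked chromatin beside a break, had 6.99, 7.18, 6.46 and 6.98 in spaceflight, against 7.31, 7.17, 7.19 and 7.31 in ground control. Spaceflight array 2 reached the ground-control values and array 3 was far below them. The difference was -0.34 ± 0.15 (limma adjusted p = 0.445), and it was -0.17 without spaceflight arrays 1 and 3. The remaining members of the group were not called. Atm differed by -0.17 ± 0.15, and Trp53bp1, which steers breaks toward end joining, by -0.17 ± 0.11. Chek2, the checkpoint kinase below ATM, differed by -0.12 ± 0.14, and Atr by 0.00 ± 0.14.

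End joining had a median difference of -0.07 over 6 measured genes. None passed the test. Xrcc6 encodes Ku70 and Xrcc5 encodes Ku80, which together form the ring that first grips a broken end. Xrcc6 had 10.43, 10.15, 9.73 and 10.27 in spaceflight, against 9.90, 9.87, 9.69 and 9.81 in ground control. Spaceflight arrays 1, 2 and 4 lay above all ground-control arrays, and array 3 lay among them. The difference was 0.32 ± 0.15 (limma adjusted p = 0.456), and 0.39 without spaceflight arrays 1 and 3 (unadjusted p = 0.00606, adjusted p = 0.409, limma). Over all alternatives the adjusted p ran from 0.322 to 0.831. Xrcc5 differed by 0.00 ± 0.16, with 8.14, 8.77, 7.98 and 8.21 in spaceflight, against 8.23, 8.41, 8.26 and 8.18 in ground control. Its array 2 was the highest of all 8 and its array 3 the lowest.

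Xrcc4, the scaffold of the ligase that closes the break, had 7.49, 8.12, 7.48 and 8.18 in spaceflight, against 8.07, 8.00, 8.23 and 8.09 in ground control. Spaceflight arrays 1 and 3 alone lay below the ground-control range. The difference was -0.28 ± 0.17 (limma adjusted p = 0.527) and changed sign to 0.05 without those arrays. Prkdc encodes the catalytic subunit of DNA-dependent protein kinase, the gene mutated in scid mice. It had 7.06, 7.08, 6.76 and 6.60 in spaceflight, against 7.13, 7.11, 7.04 and 7.08 in ground control, with arrays 3 and 4 of the flight group below the rest. The difference was -0.22 ± 0.13 (limma adjusted p = 0.512). Lig4, the ligase itself, differed by -0.09 ± 0.12 and Nhej1, the XLF cofactor, by -0.04 ± 0.12. Among the double-positive thymocyte markers, measured here in whole lobes, Rag2, a subunit of the recombinase that cuts receptor genes, differed by -0.25 ± 0.11 (limma adjusted p = 0.449), with every spaceflight array below every ground-control array. The difference was -0.14 without spaceflight arrays 1 and 3 (limma adjusted p = 0.855).

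**Figure D2:**
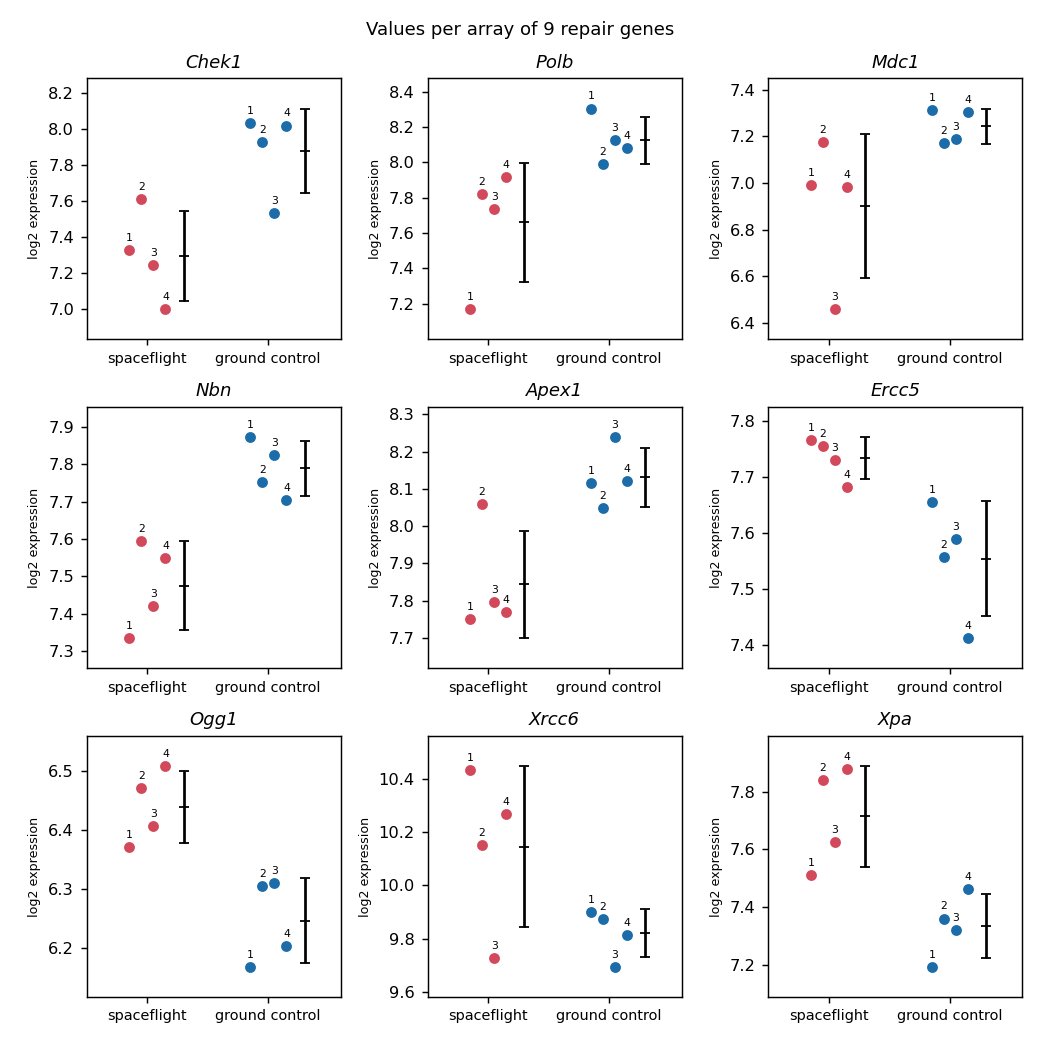
Log2 expression per array of the 9 repair genes at an unadjusted p under 0.05 or without overlap between groups; points are arrays numbered by replicate, and bars are mean ± SD (n = 4 each). Each panel has its own vertical scale, which does not start at 0. Xpa, Ogg1 and Ercc5 are higher and Nbn and Polb lower in all 4 spaceflight arrays than in any ground-control array.

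Base excision and single-strand break repair had a median difference of -0.13, with 6 of 7 genes below 0, against 66.4% of genes at the members' levels. Polb, the polymerase that fills the gap left after a damaged base is cut out, had 7.17, 7.82, 7.73 and 7.92 in spaceflight, against 8.30, 7.99, 8.13 and 8.08 in ground control. The groups did not overlap, and spaceflight array 1 was far below the others. The means were 7.66 ± 0.33 in spaceflight and 8.13 ± 0.13 in ground control (SD, n = 4 each), and the difference was -0.47 ± 0.16, or 1.38-fold (limma adjusted p = 0.355). It was -0.26 without spaceflight arrays 1 and 3 (adjusted p = 0.69, limma), and the adjusted p ran from 0.201 to 0.752 over all alternatives.

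Apex1, the endonuclease that nicks the strand at a site without a base, had 7.75, 8.06, 7.80 and 7.77 in spaceflight, against 8.12, 8.05, 8.24 and 8.12 in ground control. Spaceflight array 2 lay just above the lowest ground-control array and the other spaceflight arrays lay below all of them. The difference was -0.29 ± 0.11 (limma adjusted p = 0.403). Ogg1, the glycosylase that removes oxidised guanine, differed in the other direction, with 6.37, 6.47, 6.41 and 6.51 in spaceflight, against 6.17, 6.31, 6.31 and 6.20 in ground control. All spaceflight values lay above all ground-control values, by a small margin, and the difference was 0.19 ± 0.10 (limma adjusted p = 0.485). The break sensors Parp1 (-0.13 ± 0.12) and Parp2 (-0.14 ± 0.11), the scaffold Xrcc1 (-0.09 ± 0.12) and the uracil glycosylase Ung (-0.03 ± 0.11) were not called.

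Nucleotide excision repair had a median difference of -0.07, with 4 of 7 genes below 0, and 0.14 without spaceflight arrays 1 and 3. Xpa, which checks the lesion and assembles the incision complex, had the largest positive difference of the members. It had 7.51, 7.84, 7.63 and 7.88 in spaceflight, against 7.19, 7.36, 7.32 and 7.46 in ground control. Every spaceflight array lay above every ground-control array. The means were 7.71 ± 0.17 in spaceflight and 7.33 ± 0.11 in ground control (SD, n = 4 each), and the difference was 0.38 ± 0.12, or 1.30-fold (limma adjusted p = 0.326). Without spaceflight arrays 1 and 3 it was 0.53 (unadjusted p = 0.000999, adjusted p = 0.205, limma), and the adjusted p ran from 0.13 to 0.721 over all alternatives.

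Ercc5 encodes XPG, the nuclease that cuts on the far side of the lesion from Ercc1. It had 7.77, 7.76, 7.73 and 7.68 in spaceflight, against 7.66, 7.56, 7.59 and 7.41 in ground control. All spaceflight values lay above all ground-control values, and the difference was 0.18 ± 0.10 (limma adjusted p = 0.507). Ercc2, a helicase of the transcription factor TFIIH that opens the strands, had 7.03, 6.99, 6.81 and 7.28 in spaceflight, against 7.20, 7.13, 7.20 and 7.27 in ground control, and differed by -0.17 ± 0.12 (limma adjusted p = 0.564). Ercc1 and Ercc3 differed by -0.20 ± 0.16 and -0.15 ± 0.13, and both were lowest in spaceflight arrays 1 and 3. Without those arrays their differences were 0.10 and 0.06. The lesion finders Xpc and Ddb2 differed by -0.07 ± 0.14 and 0.12 ± 0.12.

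Mismatch repair was measured through its recognition subunit Msh6 and the nuclease subunit Pms2. Msh6 had 8.66, 8.66, 8.15 and 8.56 in spaceflight, against 8.81, 8.48, 8.45 and 8.57 in ground control, a difference of -0.07 ± 0.14 (limma adjusted p = 0.845). Pms2 had 7.57, 7.69, 7.45 and 7.42 in spaceflight, against 7.51, 7.49, 7.37 and 7.42 in ground control, a difference of 0.09 ± 0.11 (limma adjusted p = 0.749). The groups overlapped in both.

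Homologous recombination had a median difference of -0.04 and a range from -0.14 to 0.12 over 8 genes, none at an unadjusted p under 0.05. The 3 genes of smallest p were Rad52, Xrcc3 and Palb2. Rad52, an annealing factor, had 7.25, 7.31, 7.23 and 7.58 in spaceflight, against 7.34, 7.43, 7.63 and 7.54 in ground control, and differed by -0.14 ± 0.12 (limma adjusted p = 0.63). Xrcc3, a helper of strand invasion, had 6.71, 6.55, 6.93 and 6.45 in spaceflight, against 6.47, 6.60, 6.55 and 6.54 in ground control, and differed by 0.12 ± 0.12 (limma adjusted p = 0.683). Palb2, which joins Brca1 to Brca2, had 5.42, 5.36, 4.99 and 5.24 in spaceflight, against 5.38, 5.31, 5.27 and 5.35 in ground control, and differed by -0.08 ± 0.12 (limma adjusted p = 0.791). Spaceflight values spanned the ground-control ones in all 3 but Rad52, whose top value was in ground control.

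The equal means of several recombination and Fanconi genes among the members hid a wide spread between flown mice. Brca1, Brca2, Blm, Bard1, Atr, Atm and Rad50 are given per array here, chosen after their values were seen. In each of them spaceflight arrays 1 and 2 lay above spaceflight arrays 3 and 4. Brca2 (18.638) and Atr (8.036) had the largest SD ratios of the members, spaceflight over ground control. As a set, though, the named genes are not those of largest ratio. The ratio was 1.435 for Bard1, and 6.78 for Mre11a, which is not given per array. Brca2, which loads the recombinase on single-stranded DNA, had 6.34, 6.12, 5.58 and 5.12 in spaceflight, against 5.83, 5.80, 5.87 and 5.86 in ground control. The SD was 0.55 in spaceflight and 0.03 in ground control. Brca1, its partner in recombination, had 7.58, 7.51, 6.60 and 6.82 in spaceflight, against 7.25, 6.997, 6.92 and 7.42 in ground control. For both genes, spaceflight arrays 1 and 2 lay above every ground-control array and arrays 3 and 4 below.

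Blm, the helicase mutated in Bloom syndrome, had 7.68, 7.78, 7.23 and 6.91 in spaceflight, against 7.53, 7.42, 7.21 and 7.49 in ground control. Fancd2 and Fanci form the pair that is ubiquitinated when a crosslink is met. Fancd2 had 6.78, 7.15, 6.17 and 6.10 in spaceflight, against 6.66, 6.37, 6.38 and 6.71 in ground control, a difference of 0.02 ± 0.21 (limma adjusted p = 0.976). Fanci had 7.37, 7.50, 6.74 and 7.03 in spaceflight, against 7.09, 6.92, 6.94 and 7.13 in ground control, a difference of 0.14 ± 0.16 (limma adjusted p = 0.723). In all 3, arrays 1 and 2 of the flight group were its highest and lay above every ground-control array. Fanca, of the core complex that ubiquitinates them, did not share this order, with 6.69, 6.37, 6.49 and 6.31 in spaceflight, against 6.43, 6.32, 6.45 and 6.71 in ground control (-0.01 ± 0.13, limma adjusted p = 0.967).

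Among the damage kinases, Atr had 7.02, 7.19, 6.63 and 6.55 in spaceflight, against 6.90, 6.84, 6.81 and 6.83 in ground control. Atm had 7.52, 7.77, 7.16 and 7.12 in spaceflight, against 7.61, 7.63, 7.53 and 7.49 in ground control. Both were higher in spaceflight arrays 1 and 2 than in arrays 3 and 4, as was Rad50, with 7.97, 8.28, 7.68 and 7.67 in spaceflight, against 7.78, 7.93, 7.71 and 7.81 in ground control. Bard1, the partner of Brca1, had 6.90, 6.76, 6.34 and 6.27 in spaceflight, against 6.68, 6.56, 6.45 and 6.95 in ground control. Rad54l, a motor that moves the recombinase, spread less, with an SD of 0.25 in spaceflight and 0.16 in ground control.

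**Figure D3:**
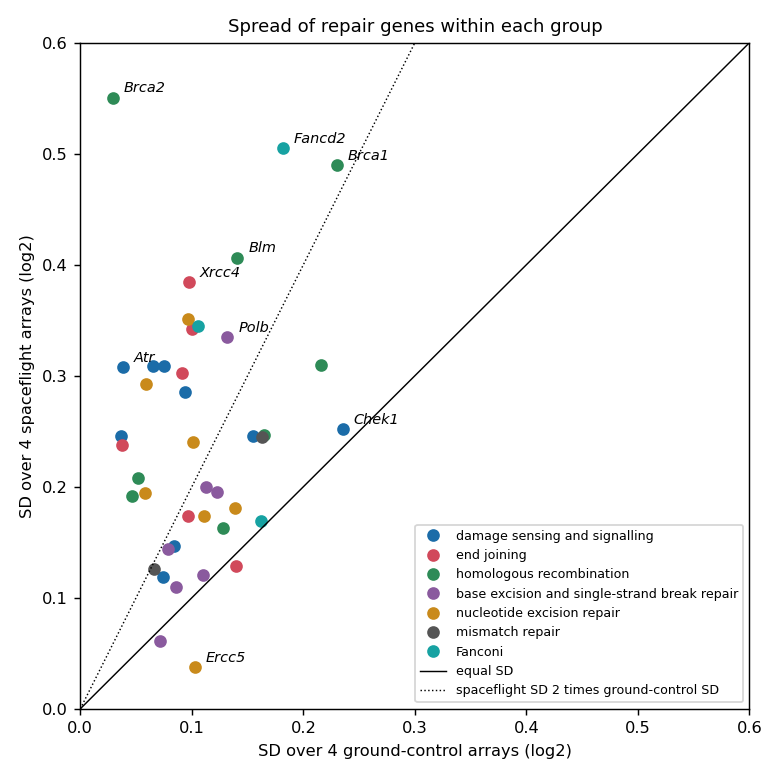
SD over the 4 spaceflight arrays (vertical) against SD over the 4 ground-control arrays (horizontal) of each of the 42 repair genes, in log2 units, coloured by pathway. The solid line marks equal SD and the dotted line an SD 2 times as large in spaceflight; 39 genes lie above the solid line, and Lig4, Ogg1 and Ercc5 lie below it.

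In 39 of the 42 genes (92.9%) the SD was larger in spaceflight, against 74.6% of all genes. It was at least 2 times as large in 21 (50.0%), against 35.2% of all genes. The median ratio of the 2 SDs was 2.01 over the members and 1.57 over all genes. Genes at the members' levels had a larger spaceflight SD in 78.2%, an SD at least 2 times as large in 39.0%, and a median ratio of 1.68. The 93 genes of a wider list of other repair genes stood at 77.4%, 38.7% and 1.74. Its recombination genes (10 of 17, 58.8%) and Fanconi genes (6 of 12, 50.0%) had a larger spaceflight SD less often than all genes. Its other groups had it more often: sensing 13 of 13, end joining 7 of 7, mismatch 8 of 9 and nucleotide excision 10 of 12. Base excision stood at 11 of 14, and translesion and direct reversal at 7 of 9. The wide spread of the listed recombination and Fanconi genes thus did not extend to these wider groups. Some other lists were about as high as the members. The spaceflight SD was larger in 18 of 18 p53 targets, 10 of 10 cortical epithelium markers and 25 of 27 S-phase genes. The p53 list shares Polk with the wider repair list. Other lists were lower, among them B cell markers (4 of 5) and fibroblast markers (3 of 6). Without spaceflight arrays 1 and 3, which leaves 2 arrays in that group, the larger SD was in spaceflight for 27 of the 42 (64.3%), against 42.6% of all genes.

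An order in which spaceflight arrays 1 and 2 both lay above arrays 3 and 4 was found in 19 of the 42 genes (45.2%), against 12.6% of all genes, and the opposite order in 0, against 7.92%. It was looked for after the values above had been seen. By pathway it held for 6 of 8 recombination genes, 6 of 9 sensing and signalling genes, 2 of 3 Fanconi genes, 2 of 2 mismatch genes, 2 of 6 end-joining genes, 1 of 7 nucleotide excision genes and 0 of 7 base excision genes. In a wider list of other repair genes it held for 9 of 17 recombination, 6 of 12 Fanconi and 5 of 9 mismatch genes. There it also held for 4 of 13 sensing, 3 of 7 end-joining and 4 of 14 base excision genes. For nucleotide excision it was 2 of 12, with 2 in the opposite order, and for translesion and direct reversal 2 of 9. The same order held for 26 of the 27 measured genes of a list of S-phase and proliferation genes, which shares no gene with the members. The median deviation of that list from the ground-control mean was -0.03, 0.01, -0.51 and -0.46 in spaceflight arrays 1 to 4, against 0.06, -0.16, -0.06 and 0.18 in ground-control arrays 1 to 4. For the recombination genes it was 0.21, 0.19, -0.26 and -0.30 in spaceflight, against 0.04, -0.04, -0.09 and 0.06 in ground control. Both lists were low in spaceflight arrays 3 and 4, but in arrays 1 and 2 recombination genes lay above ground control and the S-phase list did not. The part of cell division in the repair values was not tested. The S-phase list had a median difference of -0.24 (-0.22 without spaceflight arrays 1 and 3), and 25 of 27 genes lay below 0. Of them 7 (25.9%) were lower at an unadjusted p under 0.05 (limma), against 7.38% of all genes, and 0 passed after adjustment. Ccne2, a cyclin of S-phase entry, had the smallest p of that list, with a difference of -0.68 ± 0.18 (limma adjusted p = 0.245).

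**Figure D4:**
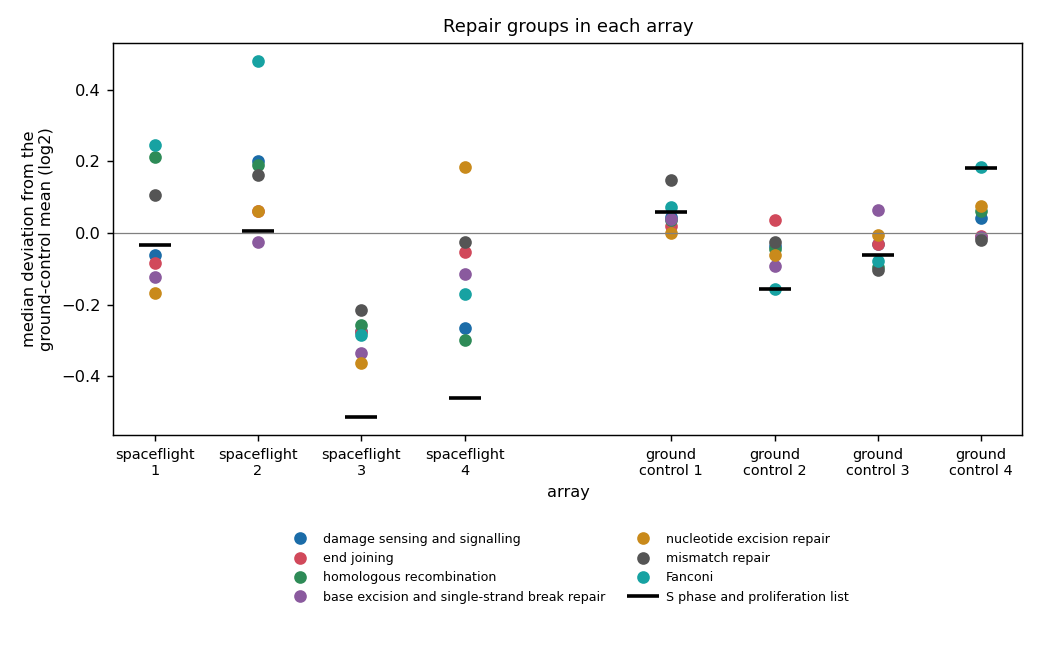
Median deviation of each repair pathway from the ground-control mean of its genes (log2), for each of the 8 arrays; the black bars give the list of 27 S-phase and proliferation genes. Recombination genes stand at 0.21 and 0.19 in spaceflight arrays 1 and 2 and at -0.26 and -0.30 in arrays 3 and 4, while the ground-control arrays stay between -0.09 and 0.06.

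A wider list of other repair genes, 93 measured of 102, had a median difference of -0.08, and -0.01 without spaceflight arrays 1 and 3. Of the 93, 69 (74.2%) lay below 0, against 53.5% of all genes and 66.4% of genes at the members' levels. The groups did not overlap for 5 (5.38%), 1 higher and 4 lower, against 6.01% of all genes (1.73% higher and 4.28% lower). None passed after adjustment, and 9 (9.68%) were at an unadjusted p under 0.05, 2 higher and 7 lower, at the same background of 10.8%. The smallest p was that of Parp3, a break-responsive ADP-ribosyl transferase, which differed by -0.50 ± 0.12 (limma adjusted p = 0.191). Rad9a and Hus1, both parts of the checkpoint clamp that helps ATR to activate Chek1, differed by -0.49 ± 0.14 and -0.40 ± 0.11 (limma adjusted p = 0.28 and 0.282), with all 4 spaceflight arrays below all ground-control arrays for each. Neil3, a glycosylase of replicating cells, differed by 0.50 ± 0.17 (limma adjusted p = 0.35).

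Among the polymerases and reversal enzymes, Rev1, a translesion polymerase, differed by -0.26 ± 0.10 and Alkbh3, which reverses alkylation, by 0.26 ± 0.11. The sliding clamp Pcna differed by -0.31 ± 0.13, and Mlh3, a mismatch repair partner, by -0.37 ± 0.15. In end joining the examples were Lig3 (-0.24 ± 0.11) and Rif1 (-0.31 ± 0.18), in recombination Rad51b (0.26 ± 0.13) and Dna2 (-0.29 ± 0.15), and in the Fanconi group Fancg (-0.21 ± 0.11) and Fancb (-0.23 ± 0.13). For nucleotide excision they were Gtf2h3 (-0.25 ± 0.16) and Ercc8 (-0.12 ± 0.12). The limma adjusted p of these genes lay between 0.411 and 0.666. Of 18 p53 target genes, which report on the signal that damage kinases send, 0 passed after adjustment and 3 were lower at an unadjusted p under 0.05 (16.7%, against 7.38% of all genes), with a median difference of -0.11. That median was -0.02 without spaceflight arrays 1 and 3. Phlda3 differed by -0.81 ± 0.19 (limma adjusted p = 0.179) and Zmat3 by -0.42 ± 0.11 (limma adjusted p = 0.245).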

How the data were processed

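Thymus RNA of 8 mice was measured on 8 arrays. Per the labels' protocols, Trizol was used for RNA extraction and 6 µg went into each biotinylated cRNA. The authors deposited 1 log2 value per probe set and array. RMA and limma are named in the submitters' processing notes, and their versions, the genome build and filters are not given in the sources used here. Left out, as array controls by assumption, was the lowest unbroken run of 6614 identifiers among 35557 probe sets, none of them annotated. Of the 23410 annotated probe sets, 21789 had 1 gene and 1621 several, and 5533 of those kept had no gene name. Symbols followed the RefSeq table of GRCm38.p6 (21698 matched), and each gene took its single-gene probe set of highest mean (19938 genes).

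Spaceflight and ground control were compared by a two-sided moderated test over all 8 arrays without a block (limma 3.58.1, functions lmFit and eBayes, under R 4.3.3), adjusted by Benjamini-Hochberg over all 19938 genes at 0.05. The procedure was tested on simulated data. The members, lists and tests were chosen with earlier results of these data known. Array values are given for the 3 members of smallest p in each pathway and for those without overlap between groups, and for Xrcc5, Brca1, Brca2, Blm, Bard1, Atr, Atm and Rad50, chosen after their values were seen. Up to 2 genes of smallest p were named from each other list. The highest correlation between any pair of arrays was 0.994 and the lowest 0.954, between spaceflight array 1 and ground-control array 3. The number of arrays limits the precision. Lists of fibroblast, muscle, B cell, red cell and cortical epithelium markers were also fixed, with median differences of -0.06, -0.40, -0.14, -0.40 and -0.44.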

Additional observations from a re-analysis of the deposited data

Results flagged for a closer look

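In 84 groups of 4 arrays (42 genes in 2 groups), the highest or lowest array stood far from the other 3 in 4 cases, by Dixon's criterion, and chance flags about 1 in 20 groups. Chek2 was at 7.08 in spaceflight array 2, where the other 3 spaceflight arrays lay between 6.57 and 6.61. Apex1 was at 8.06 in spaceflight array 2, where the other 3 lay between 7.75 and 7.80. Xrcc1 was at 7.08 in spaceflight array 3, where the other 3 lay between 7.48 and 7.49. Ercc3 was at 8.27 in ground-control array 3, where the other 3 lay between 8.06 and 8.08.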

How the results depend on the processing

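No member was at a limma adjusted p under 0.05 under any of the 19 alternatives, of which the fit of every probe set kept was added after seeing the data. Other results could move. Members at an unadjusted p under 0.05 numbered 7, and 4 to 8 without a single array. The background over all genes moved as well. There were 4 without ground-control array 3, where 1.77% of all genes were higher and 4.47% lower. There were 8 without spaceflight array 2, where 6.53% of all genes were higher and 10.9% lower, and 8 without spaceflight array 4 (6.16% and 11.1%). The replicate block gave 6 members (20 genes called among all), where 2.9% of all genes were higher and 7.24% lower. Same-numbered arrays did not deviate together in a steady way (correlations 0.243, -0.296, -0.098 and 0.069). Arrays of different numbers were not compared, so these correlations cannot exclude a pairing. Fitting every probe set kept also gave 6, where 3.05% of all genes were higher and 7.0% lower. Members whose groups do not overlap numbered 5 (11.9%, against 6.01% of all genes), and 5 to 11 without a single array. The 11 came without spaceflight array 2, where 14.4% of all genes did not overlap. This count was added after seeing the data. The split at an unadjusted p under 0.05 was 2 higher and 5 lower, and it was 5 and 2 with 75th percentiles subtracted, 3 and 4 with medians subtracted, and 4 and 4 with repeated quantile normalization. Over all genes the shares higher and lower were 3.43% and 7.38%, then 7.76% and 2.61%, 5.37% and 5.35%, and 3.24% and 6.96% in the same order, so the split with 75th percentiles subtracted turned for all genes as well. The larger SD was in spaceflight for 35 to 39 members without a single array, against 67.1% to 79.2% of all genes. Without a single array, the members' median difference ran from -0.144 (without spaceflight array 2) to 0.0105 (without spaceflight array 3), and it was 0.0698 with 75th percentiles subtracted. That of the recombination genes ran, without a single array, from -0.135 to 0.117. The number of genes called among all 19938 was 16. It was 5 with all rows of the table, 6 with 75th percentiles subtracted, 10 with every probe set kept and 6 to 15 without a single array. With bright genes only, 25 were called among the 9969 genes tested. Each fit was adjusted over its own rows. Base excision genes moved to a median of 0.0103 with 75th percentiles subtracted. Small differences changed sign. With 75th percentiles subtracted, these were Chek2 (0.02), Mre11a (0.119), Lig4 (0.0472), Nhej1 (0.0993), Brca1 (0.119), Brca2 (0.0893), Palb2 (0.0611), Bard1 (0.0495), Blm (0.127), Parp1 (0.0103), Parp2 (0.0028), Xrcc1 (0.0505), Ung (0.114), Xpc (0.0717), Msh6 (0.0678) and Fanca (0.125). With medians subtracted they were Mre11a (0.0259), Nhej1 (0.0063), Brca1 (0.026), Blm (0.034), Ung (0.0206) and Fanca (0.0316). With repeated quantile normalization they were Mre11a (0.0576), Nhej1 (0.0057), Brca1 (0.0485), Blm (0.0737), Ung (0.0069), Msh6 (0.0107) and Fanca (0.0339). With array weights they were Atr (-0.0007), Mre11a (0.0027) and Fancd2 (-0.0042). Without spaceflight arrays 1 and 3 they were Chek2 (0.0121), Mre11a (0.127), Xrcc4 (0.054), Brca1 (0.0158), Xrcc3 (-0.0384), Xrcc1 (0.012), Xpc (0.143), Ercc1 (0.0956), Ercc3 (0.0628) and Msh6 (0.0302). Without a single array, Atr (-0.112 to 0.104), Mre11a (-0.132 to 0.0643), Rad50 (-0.0338 to 0.167), Xrcc5 (-0.159 to 0.103), Nhej1 (-0.105 to 0.035), Brca1 (-0.171 to 0.154), Brca2 (-0.233 to 0.174), Palb2 (-0.134 to 0.0097), Bard1 (-0.201 to 0.0102), Rad54l (-0.0002 to 0.191), Blm (-0.14 to 0.151), Xrcc1 (-0.14 to 0.0112), Ung (-0.0768 to 0.019), Xpc (-0.196 to 0.0349), Msh6 (-0.124 to 0.0484), Fanca (-0.0903 to 0.0612) and Fancd2 (-0.183 to 0.167) had both signs. The cause of these changes was not tested. Chek1, Nbn, Polb, Mdc1, Apex1, Xpa, Xrcc6, Ogg1 and Ercc5 kept their direction under every alternative run. So did Atm, Trp53bp1, Prkdc, Rad52, Ercc2, Ddb2, Pms2 and Fanci. For Nbn, Polb, Xpa, Ogg1 and Ercc5, whose groups do not overlap, leaving out arrays could not change the sign.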
